A study of Mus musculus with 9 samples.

Results

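Binding of HOXA13 and HOXD13 was described over the posterior genes of the HoxB and HoxC clusters, clusters that are not the ones that pattern digits. The set held 10 of 21951 annotated protein-coding genes, 6 of HoxC (Hoxc13, Hoxc12, Hoxc11, Hoxc9, Hoxc8 and Hoxc6) and 4 of HoxB (Hoxb13, Hoxb9, Hoxb8 and Hoxb6). A peak interval was assigned to them when one of its summits lay in a gene body or within 20 kb on either side. By this rule 188 of the 632469 intervals in all lists belonged to the set, between 5 and 36 in a list. The joined windows were chr15:102901103-103031881 for HoxC (130.8 kb), and chr11:96174316-96217447 for Hoxb13 (43.1 kb) with chr11:96251457-96321569 for the other HoxB members (70.1 kb), all on mm10.

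The data were CUT&RUN libraries, a method in which an antibody brings a nuclease to a DNA-bound protein and the released fragments are sequenced. All 9 came from distal forelimb of mouse embryos, strain label B6CBAF1, and each was made from a pool of several embryos. Wild-type (wt) embryos at E12.5 gave 3 HOXA13 and 3 HOXD13 libraries. Homozygotes of the II1 T-DOM 542 allele (542) at E12.5 gave 2 HOXA13 libraries, and a HOXD13 library of this allele, titled E11.5, has no replicate. Its stage is uncertain, since the growth protocol gives that library the same day of collection as the others. The 542 allele is a single-copy insertion of the digit enhancer II1, with a promoter and lacZ, into a regulatory domain of the HoxD locus on chromosome 2, kept as 1 founder line, and chromosomes 11 and 15 carry no part of it. There was no control library in the set.

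The lists held 23939 to 117719 intervals, made from 36.9 to 65.5 M read ends recovered from the lists themselves. In wt, replicate 3 of either antibody stood apart from replicates 1 and 2 in which sites were called, and that of HOXD13 is labelled as the reanalysis of an earlier library, so tests were also run without both. The shortest list, wt HOXD13 replicate 1, held 4 intervals in HoxC and 1 in HoxB, and the longest, 542 HOXD13, held 22 and 14. Counts were therefore compared as ratios within a list or per 10000 intervals of the list. Every test was exact and two-sided, with signs flipped over the 6 wt libraries or group labels permuted, and adjusted p-values are those of Benjamini-Hochberg over 10 tests.

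Hox genes code for homeodomain transcription factors that give cells their position along the body, and they lie in clusters whose order along the chromosome matches the order in which the genes are used. Genes of the HoxA and HoxD clusters, Hoxa13 and Hoxd13 foremost, pattern the digits. Posterior HoxC and HoxB genes serve other structures: Hoxc13 acts in hair and nails, Hoxb13 in the tail and the prostate, and Hoxc9, Hoxc8 and Hoxc6 in the trunk and its motor neurons.

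The sequence under the summits is shown for the sites that were called in all 9 lists, because the comparisons return to them, and for HoxC site 20, called by antibody in wt, and HoxB site 4, at the start of Hoxb13. A site is the union of overlapping intervals of any list, numbered in order along each cluster. The runs are the plus strand of GRCm38, the assembly of mm10, around the median wt summit, cut where an annotated exon begins or ends. Capitals mark matches to the HOX13 consensus, searched on both strands as CCNATAAA, CCNGTAAA, CTNATAAA or CTNGTAAA, with N any base. HoxC site 17 is read from chr15:102959958-102960157, HoxC site 24 from chr15:102998057-102998256, HoxC site 27 from chr15:103014536-103014732, HoxB site 16 from chr11:96281666-96281865, HoxC site 20 from chr15:102980363-102980562 and HoxB site 4 from chr11:96194157-96194315.
HoxC site 17, past the end of Hoxc11: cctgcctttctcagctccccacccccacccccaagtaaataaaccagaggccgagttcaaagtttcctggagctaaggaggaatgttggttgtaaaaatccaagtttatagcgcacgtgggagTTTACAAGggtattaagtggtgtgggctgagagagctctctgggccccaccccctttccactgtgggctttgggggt
HoxC site 24, before the start of the Hoxc6 gene record: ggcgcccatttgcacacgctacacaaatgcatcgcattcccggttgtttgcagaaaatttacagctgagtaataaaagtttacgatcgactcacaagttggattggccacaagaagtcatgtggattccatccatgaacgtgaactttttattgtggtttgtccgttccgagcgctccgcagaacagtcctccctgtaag
HoxC site 27, in the Hoxc5 intron near a start: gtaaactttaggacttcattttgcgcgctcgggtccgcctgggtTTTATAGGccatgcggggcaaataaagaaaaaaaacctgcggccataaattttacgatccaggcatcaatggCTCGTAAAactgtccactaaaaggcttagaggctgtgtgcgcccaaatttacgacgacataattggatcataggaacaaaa
HoxB site 16, before the start of Hoxb8: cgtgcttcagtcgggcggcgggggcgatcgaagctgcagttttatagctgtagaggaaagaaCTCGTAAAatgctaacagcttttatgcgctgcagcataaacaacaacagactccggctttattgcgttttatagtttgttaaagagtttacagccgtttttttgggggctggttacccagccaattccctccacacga
HoxC site 20, in an intron of Hoxc9: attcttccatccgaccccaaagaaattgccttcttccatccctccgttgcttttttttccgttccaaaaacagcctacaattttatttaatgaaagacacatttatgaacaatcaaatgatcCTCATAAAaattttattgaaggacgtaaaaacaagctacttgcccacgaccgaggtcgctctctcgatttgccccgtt
HoxB site 4, before the start of Hoxb13: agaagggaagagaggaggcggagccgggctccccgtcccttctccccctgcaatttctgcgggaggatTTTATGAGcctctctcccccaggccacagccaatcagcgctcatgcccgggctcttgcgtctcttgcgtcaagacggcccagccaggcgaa

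The first question was whether each member gene had binding at all. An interval lay in the window of 7 of the 10 members in all 6 wt lists, where 50.1% of protein-coding genes had one by the same rule. Hoxc13, Hoxc12 and Hoxb13 were the exceptions, with no interval for Hoxc13 and Hoxc12 in wt HOXD13 replicate 1 and none for Hoxb13 in wt HOXD13 replicates 1 and 3. The 5 HoxD and the 4 HoxA genes used for comparison had one in all 6 lists.

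At the most posterior end of HoxC, the Hoxc13 window held 3, 1 and 2 intervals with HOXA13 in wt replicates 1 to 3 and 0, 7 and 1 with HOXD13. Most of the HOXD13 calls came from replicate 2, the deepest wt HOXD13 library, so the antibodies overlapped. In 542 the same window held 6 and 2 intervals with HOXA13 and 8 with HOXD13. Hoxc12, the next gene, whose window overlaps that of Hoxc13, held 3, 1 and 2 intervals with HOXA13 and 0, 5 and 1 with HOXD13 in wt. Hoxc11 held 2, 1 and 3 with HOXA13 and 1, 3 and 2 with HOXD13. These 3 genes had a median of 1.5, 1.5 and 2 intervals over the 6 wt lists.

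Medians over the 6 wt lists were higher for Hoxc9 and Hoxc8, at 4.5 each, and for Hoxc6, at 6, although in wt HOXD13 replicate 2 Hoxc13 had as many intervals as Hoxc6. Hoxc9, a gene of the thoracic trunk, held 5, 5 and 4 intervals with HOXA13 and 3, 5 and 2 with HOXD13 in wt. Its neighbour Hoxc8 held 6, 5 and 4 with HOXA13 and 2, 6 and 2 with HOXD13. Hoxc6, a trunk gene whose window reaches Hoxc5, held 6, 7 and 6 with HOXA13 and 3, 7 and 3 with HOXD13. In 542 it held 10 and 9 intervals with HOXA13 and 10 with HOXD13.

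In HoxB, Hoxb13 lies apart from the other genes of its cluster and held few intervals: 1, 1 and 2 with HOXA13, 0, 2 and 0 with HOXD13 in wt, 3 and 2 with HOXA13 and 2 with HOXD13 in 542. Hoxb9 held 4, 4 and 5 with HOXA13 and 1, 7 and 3 with HOXD13 in wt. Hoxb8, a gene of the trunk and of blood progenitors, held 5, 3 and 5 with HOXA13 and 1, 6 and 3 with HOXD13. Hoxb6 held 6, 4 and 6 with HOXA13 and 1, 6 and 4 with HOXD13. For each of these 4 genes the range of the HOXD13 lists took in that of the HOXA13 lists or overlapped it. Windows of neighbouring genes share intervals, so these counts are not independent of each other.

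**Figure D1:**
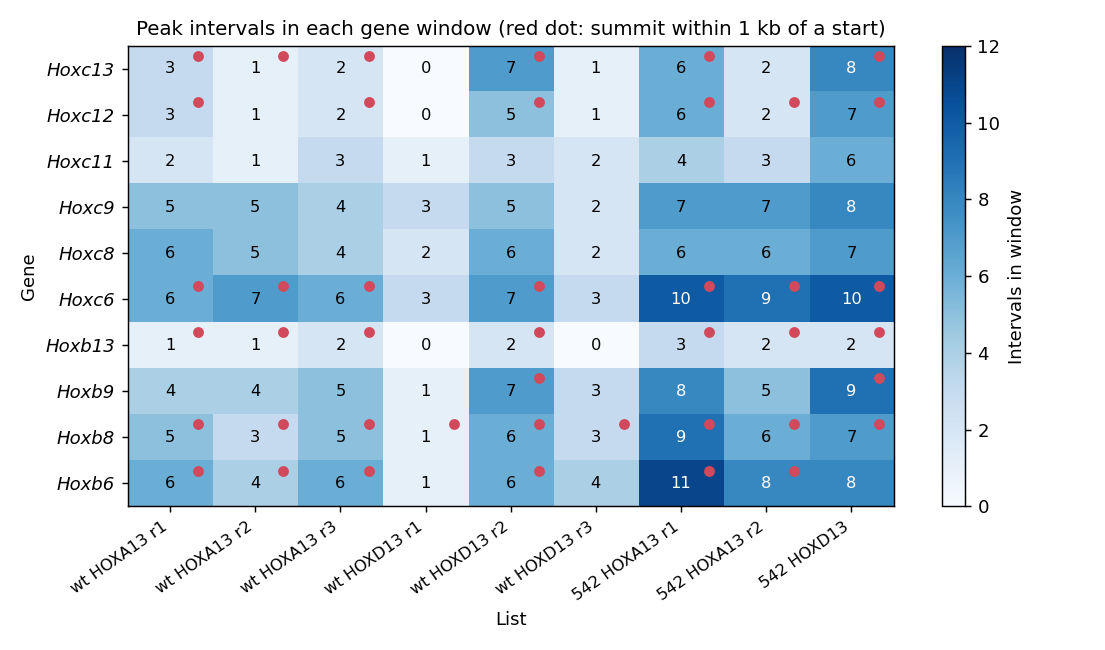
Number of peak intervals in the window of each member gene (rows) in each list (columns, r for replicate), with a red dot where a summit lay within 1 kb of a transcript start of the gene in the basic annotation. Hoxb8 is the only row with a dot in all 9 columns, and Hoxc11, Hoxc9 and Hoxc8 have none.

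Summits at the start sites were sparser. A summit within 1 kb of the start of a transcript in the basic annotation was called in all 6 wt lists for 1 of the 10 members, Hoxb8, whereas 20% of protein-coding genes (4127 of 20655) met this. In any wt list 7 of the 10 members had one, where 63.5% of protein-coding genes did. The gene record of Hoxc6 begins at 102998257, before its basic transcript, and with such record starts counted too, an alternative chosen after seeing the data, Hoxc6 joined Hoxb8, which made 2 of 10 members against 20.4% of genes. By transcript starts, Hoxc6 and Hoxb13 each had a start summit in 7 of the 9 lists, Hoxb6, Hoxc13 and Hoxc12 in 6 and Hoxb9 in 2. No list had one at Hoxc11, Hoxc9 or Hoxc8, for which the nearest site summits lay 1947, 3431 and 6175 bp from the start. The site nearest Hoxc11 was called in the 542 HOXD13 list only, and the one nearest Hoxc8 in 542 lists only. Among sites called in wt, the nearest to Hoxc11 lay 5631 bp from its start. Among other genes of both clusters, 2 of 9, Hoxc4 and Hoxc5, had a start summit in all 6 wt lists, as did 1 of 5 HoxD and 2 of 4 HoxA genes.

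The intervals of all lists joined into 57 sites in the member windows, 33 in HoxC and 24 in HoxB. Of these, 20 were called in 1 list only, or 35.1%, against 50.0% of all sites of the genome. There were 26 sites in 2 to 5 lists, 7 in 6 or 7 lists and 4 in all 9. The share called in all 9 lists was 7.02%, against 6.41% of all sites, and the same 4 sites made up those called in all 6 wt lists, where the genome gave 6.90%. HoxC held 3 of the 4 and HoxB 1. In the HoxD windows 4 of 29 sites and in the HoxA windows 10 of 24 were called in all 9 lists. Of the 33 HoxC sites, 6 had their summit in an annotated exon, 15 in an intron only and 12 between genes, and of the 24 HoxB sites 4, 7 and 13. The gene record of Hoxc5 spans Hoxc9, Hoxc8 and Hoxc6, so summits between those genes count as intronic, as at HoxC site 24. These shares were not computed over all sites.

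**Figure D2:**
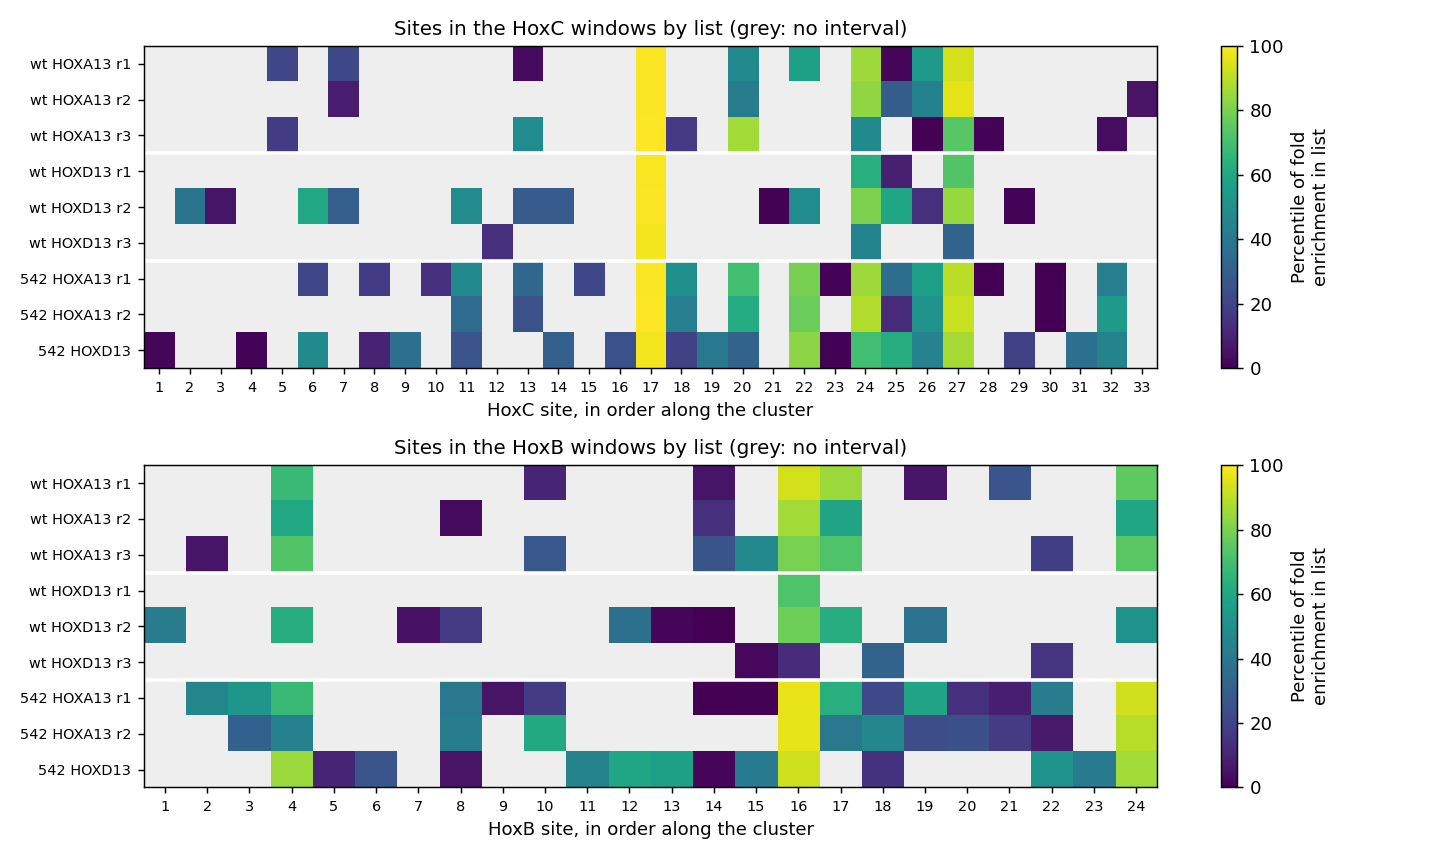
Sites of the HoxC windows (top) and the HoxB windows (bottom) in order along the cluster, with 1 row per list (r for replicate). Colour gives the percentile of the interval's fold enrichment among all intervals of its list, and grey means that no interval was called. HoxC sites 17, 24 and 27 and HoxB site 16 are the columns filled in all 9 rows.

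HoxC site 17 was the strongest site of either cluster. It spans chr15:102959578-102960895, in intergenic sequence 2350 bp past the end of Hoxc11 and 5631 bp from its start. In wt its fold enrichment was 15.6, 14.1 and 9.18 with HOXA13 and 9.92, 12.1 and 7.10 with HOXD13. In 542 it was 14.6 and 15.6 with HOXA13 and 11.8 with HOXD13. Fold enrichment, the authors' ratio of pileup to local background, ranks peaks only within a list, and there the site stood at percentiles 98.1 to 99.7 in wt. The main summits of the 9 lists, those with the highest −log10 p, fell within 10 bp of each other. A consensus match (CTTGTAAA on the minus strand, 102960081 to 102960088) began just past them, and its centre lay 27 bp from the median wt summit.

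HoxC site 24, at chr15:102997623-102998873, spans the start of the Hoxc6 gene record, which lies 100 bp past its median wt summit. The basic transcript of Hoxc6 starts further on, and the site also lies within the gene record of Hoxc5. Its fold enrichment in wt was 7.48, 6.23 and 3.27 with HOXA13 and 4.31, 5.13 and 3.37 with HOXD13, so both antibodies overlapped. In 542 it was 7.88 and 8.51 with HOXA13 and 4.66 with HOXD13. Replicate 3 had the lowest percentile with either antibody, 47.9 and 45.3, and the other wt lists stood between 62.9 and 85.5. Main summits of the 9 lists fell within 20 bp of each other. None of the letters searched matched anywhere in this site.

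HoxC site 27, at chr15:103013555-103015408, spans a transcript start of Hoxc5. Its median wt summit lies 818 bp past that start, in an intron of the gene. Fold enrichment in wt was 9.95, 9.77 and 4.12 with HOXA13 and 4.81, 5.73 and 3.11 with HOXD13. In 542 it was 8.90 and 9.34 with HOXA13 and 7.26 with HOXD13. Each list held 2 to 4 summits there, of which 1 lay at 103014099 to 103014173 and 1 at 103014622 to 103014681 in every list. Of this pair the latter was the higher in 7 lists, and the former in wt replicate 3 of either antibody. In wt HOXD13 replicate 3 they were called as separate intervals, with fold enrichments of 3.11 and 2.58. Consensus matches lay on either side of the latter, with centres 58.5 bp before and 13.5 bp after its median over the wt lists.

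HoxB site 16, at chr11:96281287-96282492, covers the start of Hoxb8, with its median wt summit 139 bp before it. Fold enrichment in wt was 9.71, 6.68 and 4.44 with HOXA13 and 4.77, 4.86 and 2.75 with HOXD13. In 542 it was 11.70 and 11.495 with HOXA13 and 8.92 with HOXD13. As recovered pileups, wt HOXA13 gave 264 (95% exact Poisson interval 233 to 298), 104 (85.0 to 126) and 85 (67.9 to 105) read ends, and wt HOXD13 gave 37 (26.1 to 51.0), 90 (72.4 to 111) and 25 (16.2 to 36.9). Per 10 M read ends of the library, the HOXA13 values of 47.8, 22.1 and 19.1 all lay above the HOXD13 values of 9.60, 15 and 6.77. The share of all sites with such a separation was not computed. At HoxC site 17 it held for the HOXA13 values recovered, 62.0 and 50.7, against 20.2, 48.6 and 24.9 with HOXD13. It did not hold at HoxC site 24, with 28.8, 20.8 and 12.8 against 8.04, 17.7 and 9.21. Nor did it at HoxC site 27, with 28.7 in HOXA13 replicate 3 and 29.6 in HOXD13 replicate 2. The Poisson intervals cover counting error only and are too narrow, since both ends of a fragment and duplicates were counted. Main summits fell within 37 bp of each other over the 9 lists, and a consensus match (CTCGTAAA on the plus strand) lay with its centre 34 bp before the median.

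**Figure D3:**
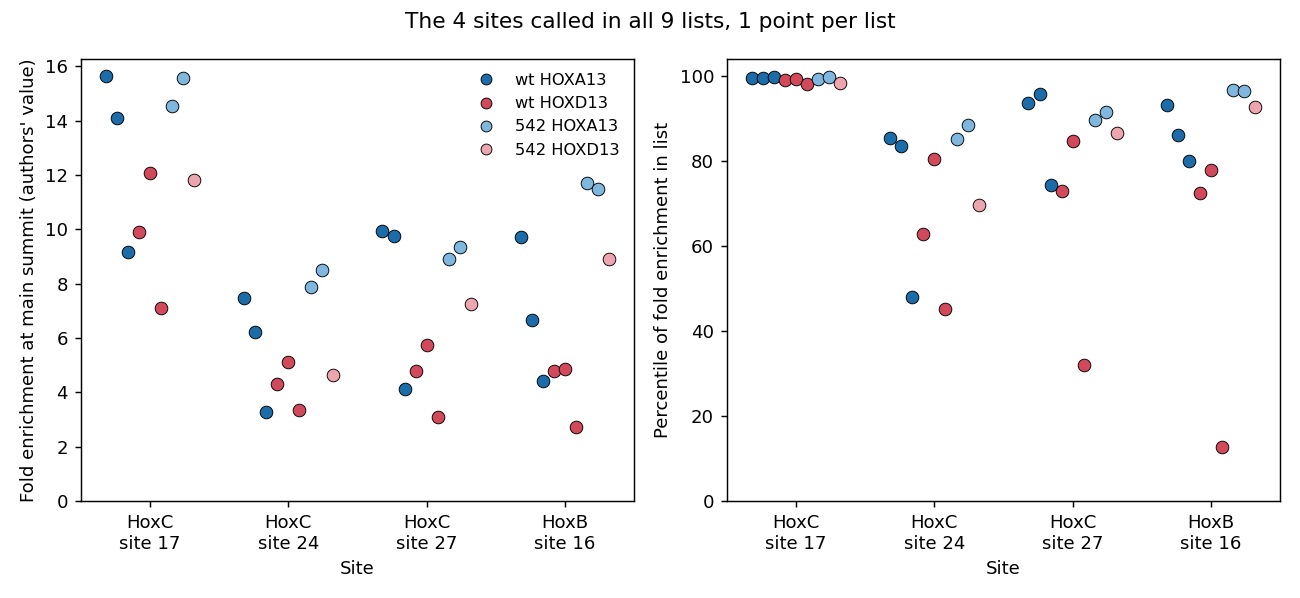
Fold enrichment at the main summit as the authors give it (left) and its percentile within the list (right) at the 4 sites called in all 9 lists, 1 point per list, coloured by genotype and antibody. HoxC site 17 stands at percentiles 98.1 to 99.7 in all 9 lists, and the lowest point, at 12.6, is wt HOXD13 replicate 3 at HoxB site 16.

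The next question was whether the sites differed between antibodies in wt. Of the 39 sites called in any wt list, 1 was called in all 3 HOXA13 lists and no HOXD13 list, or 2.56%, where 1.36% of all sites met this. None was called in all 3 HOXD13 and no HOXA13 list, where 0.0290% of all sites did. The HOXA13 site was HoxC site 20, at chr15:102979943-102980838 in an intron of Hoxc9. Its fold enrichment in wt HOXA13 was 3.63, 3.36 and 4.87, at percentiles 47.3, 42.4 and 86.0, so it was of middling strength. It was also called in both 542 HOXA13 lists (5.56 and 4.97) and in the 542 HOXD13 list (2.87), so its absence with HOXD13 held for wt only. The median wt summit lay 26 bp from the centre of a consensus match (CTCATAAA on the plus strand).

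Among the 4 sites of all 6 wt lists, the percentile was higher in every HOXA13 list than in every HOXD13 list at 2, where 13% of all such sites (1677 of 13382) met this. These were HoxC site 17, with 99.4 to 99.7 for HOXA13 against 98.1 to 99.2 for HOXD13, and HoxB site 16, with 80.1 to 93.1 against 12.6 to 77.9. The reverse held at 0 of 4, where it held for 2.90% of all such sites. Sites at the start of Hoxb13 (HoxB site 4), of Hoxb6 (HoxB site 17) and of Hoxc6 (HoxC site 26) were each called in all 3 HOXA13 lists and in 1 HOXD13 list, replicate 2. HoxB sites 14 and 24 were also called in 3 HOXA13 lists and 1 HOXD13 list of wt. What share of all sites had this pattern was not computed. At HoxB site 4 the fold enrichment was 4.98, 4.11 and 4.02 with HOXA13 and 3.73 in that HOXD13 list. At HoxB site 17 it was 7.35, 3.98 and 4.01 with HOXA13 and 3.72 with HOXD13. The other HOXD13 libraries had 38.6 and 36.9 M read ends, the lowest depths in the set, and whether these sites lay under their limit of detection was not tested. By a looser count, 6 HoxC and 3 HoxB sites were called in a wt HOXA13 list and no wt HOXD13 list. The reverse held for 8 HoxC and 5 HoxB sites, with wt HOXD13 replicate 2 the only wt list at 7 and 4 of them. Shares over all sites were not computed for these counts.

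Counted over whole clusters, the antibodies were not told apart. Per 10000 intervals of the list, HoxC held 1.15, 1.53 and 1.74 with HOXA13 and 1.67, 1.95 and 1.33 with HOXD13 in wt. The log2 difference, HOXA13 minus HOXD13, was −0.21 (exact permutation p = 0.5, adjusted 0.625), where 3 libraries against 3 allow no p under 0.1. HoxB held 0.920, 1.02 and 1.57 with HOXA13 and 0.418, 1.43 and 1.06 with HOXD13, a log2 difference of 0.23 (exact permutation p = 0.7, adjusted 0.778). In either cluster the lists of both antibodies overlapped.

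The genotypes were compared with HOXA13 alone, since 542 HOXD13 has 1 library and another stage in its title. HoxC held 10, 9 and 10 intervals in wt and 18 and 13 in 542. HoxB held 8, 6 and 9 in wt and 17 and 12 in 542. Whole lists held 86941, 58642 and 57367 intervals in wt and 99090 and 74344 in 542. What share of genes had more intervals in both 542 lists than in every wt list was not computed, so nothing is drawn from these raw counts. The 542 HOXA13 libraries had 63.9 and 44.7 M read ends and the wt ones 55.3, 47.1 and 44.6 M, and the part of depth in the cluster counts was not tested. Per 10000 intervals of the list, HoxC gave 1.48 ± 0.301 in wt (SD, n = 3) and 1.78 ± 0.048 in 542 (SD, n = 2), a log2 difference, wt minus 542, of −0.27 (exact permutation p = 0.3, adjusted 0.429, with 0.1 the least that this design allows). HoxB gave 1.17 ± 0.349 in wt (SD, n = 3) and 1.66 ± 0.072 in 542 (SD, n = 2), a log2 difference of −0.50 (exact permutation p = 0.2, adjusted 0.333). Neither difference passed the test, and genotype and mapping genome cannot be told apart. The 542 HOXD13 list held 22 intervals in HoxC and 14 in HoxB.

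By site, 5 of the 37 sites called in any HOXA13 list were called in both 542 HOXA13 lists and no wt HOXA13 list, or 13.5%, where 5.98% of all sites met this. The reverse, all 3 wt HOXA13 lists and neither 542 list, held for 0 of 37, where it held for 0.433% of all sites. The 5 were HoxC site 11 between Hoxc13 and Hoxc12, HoxC site 30 in an intron of Hoxc4, HoxB site 3 upstream of Hoxb13, HoxB site 18 in an intron of Hoxb6 and HoxB site 20 by the start of Hoxb5. They were weak to middling, with fold enrichments of 1.78 to 4.21 in the 542 HOXA13 lists. HoxC site 11 and HoxB site 18 were each also called in 1 wt HOXD13 list.

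The density of intervals was then set beside that of the clusters that do pattern digits. Windows were made by the same rule for Hoxd13, Hoxd12, Hoxd11, Hoxd9 and Hoxd8, and for Hoxa13, Hoxa11, Hoxa9 and Hoxa6. In wt HOXA13 lists the posterior HoxB and HoxC windows held 0.710 ± 0.085 intervals per 10 kb (SD, n = 3), the HoxD windows 1.88 ± 0.435 and the HoxA windows 1.62 ± 0.266. In wt HOXD13 lists the values were 0.546 ± 0.457, 2.01 ± 1.005 and 1.66 ± 0.323 (SD, n = 3). Densities of HoxB and HoxC together were lower than those of HoxD in 6 of 6 wt lists, with a mean log2 ratio of −1.73 ± 0.51 (SD) or 0.302-fold (exact permutation p = 0.031, the least that 6 signs allow, adjusted 0.156). Against HoxA the ratio was −1.54 ± 0.68 or 0.344-fold, again lower in 6 of 6 lists (exact permutation p = 0.031, adjusted 0.156). Neither passed after adjustment. The 542 lists, which entered neither test, gave −1.14, −1.30 and −1.15 against HoxD and −0.50, −0.98 and −0.67 against HoxA. Without replicate 3 of either antibody the wt values were −1.71 and −1.53 (exact permutation p = 0.125 for each, the least that 4 signs allow). With same-numbered wt libraries of the 2 antibodies averaged into 3 units, the exact permutation p was 0.25 for each, the least possible there.

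Gene by gene the same order appeared. The density of intervals in a member's window stood at a median percentile of 94.8 among protein-coding genes over the 10 members, from 37.8 for Hoxb13 to 97.7 for Hoxc8, each taken as the median over the 6 wt lists. All HoxD genes stood at 99.7 to 99.9 and all HoxA genes at 99.4 to 99.9. Hoxc13 stood at 64.8, Hoxc12 at 72.4 and Hoxc11 at 74.4, below Hoxc9, Hoxc6, Hoxb9, Hoxb8 and Hoxb6, which lay between 94.1 and 96.6.

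**Figure D4:**
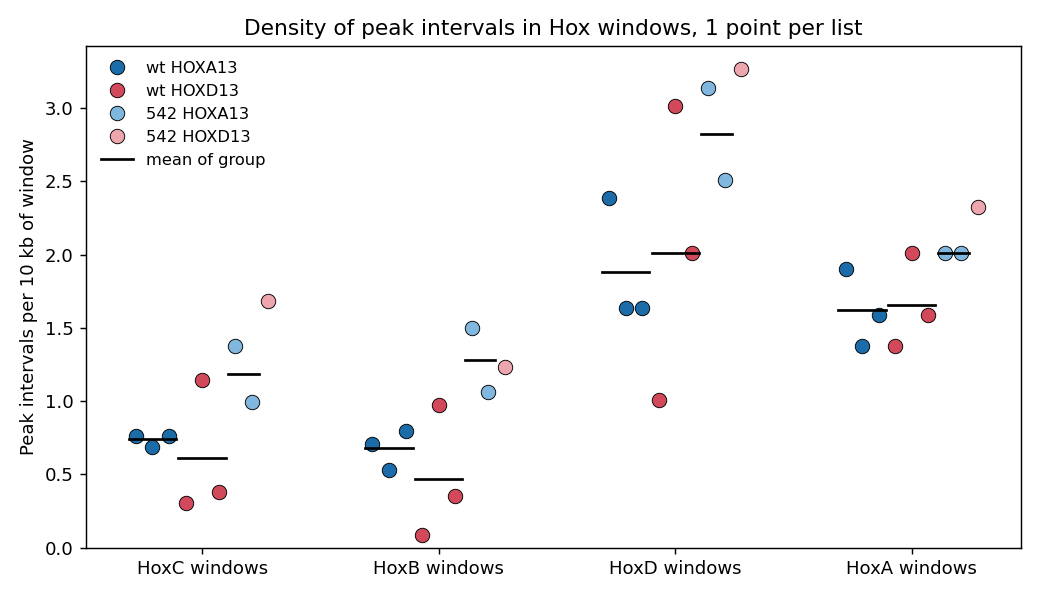
Peak intervals per 10 kb of window in HoxC, HoxB, HoxD and HoxA, 1 point per list, coloured by genotype and antibody, with the mean of each group of more than 1 list as a bar. In wt HOXA13 lists the HoxC points lie at 0.688 to 0.765 and the HoxD points at 1.63 to 2.39.

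HoxC and HoxB were closer to each other. HoxC held 0.739 ± 0.044 intervals per 10 kb with HOXA13 and 0.612 ± 0.465 with HOXD13 in wt (SD, n = 3 each). HoxB held 0.677 ± 0.135 and 0.471 ± 0.453. The mean log2 ratio of HoxC to HoxB was 0.34 ± 0.52 (SD), above 0 in 5 of 6 lists (exact permutation p = 0.0625, adjusted 0.156). It rested in part on wt HOXD13 replicate 1, whose ratio was 1.38 with 4 intervals in HoxC and 1 in HoxB, and without that library it was 0.14 (exact permutation p = 0.125). Within gene bodies alone the direction turned, to −0.25. The 542 lists, which did not enter the test, gave −0.13 and −0.097 with HOXA13 and 0.43 with HOXD13.

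Peak strength within the list gave a different order from density. The median percentile of fold enrichment over HoxB and HoxC intervals was 50.8, 43.8 and 47.0 in wt HOXA13 lists and 72.5, 38.1 and 15.4 in wt HOXD13 lists. That was 16.7 ± 23.7 points (SD) above the HoxD intervals, higher in 5 of 6 lists (exact permutation p = 0.0625, adjusted 0.156), and 7.59 points without wt HOXD13 replicate 1, which held 5 member intervals. Ranked by the authors' −log10 p instead, the difference was −9.28 points, in the other direction. HoxC and HoxB differed by −2.01 ± 12.6 points (exact permutation p = 0.8125, adjusted 0.8125), with 3 lists in either direction.

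The consensus at the summits was the last measure. In 50 bp centred on the main summit, 22.2, 26.7 and 26.3% of member intervals held a match in wt HOXA13 lists, against 12.4, 12.0 and 9.36% of all intervals. In wt HOXD13 lists the shares were 0, 11.54 and 11.1% of member intervals against 11.51, 8.21 and 7.43% of all. The 0 came from 5 intervals, which allows a share of up to 52.2% by the exact 95% binomial interval (60% if 3 counts are taken as the limit), for counting error only. The mean difference was 6.16 ± 10.3 points (SD), positive in 5 of 6 lists (exact permutation p = 0.1875, adjusted 0.333). It was 9.69 points without wt HOXD13 replicate 1 and 3.995 without wt HOXA13 replicate 3. It was 13.8 points for HOXA13 and −1.50 for HOXD13 (exact permutation test of the difference, p = 0.1, the smallest possible, not adjusted). The HOXD13 lists gave −11.5, 3.33 and 3.68 points, the first of them replicate 1 with its 5 intervals. In 542 the shares were 31.4 and 28% with HOXA13 and 25% with HOXD13, against 16.3, 15.6 and 11.1% of all intervals.

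With a wider window the difference was larger. In 100 bp, between 26.9 and 60% of member intervals in a wt list held a match, against 14.5 to 21.9% of all, a mean difference of 30.4 points (exact permutation p = 0.031, positive in 6 of 6 lists, unadjusted). In 200 bp it was 24.1 points (exact permutation p = 0.031). By antibody, the mean shares in 100 bp were 54.3% of member intervals against 20.4% of all in wt HOXA13 lists. In wt HOXD13 lists they were 43.8% against 16.8%. Searching for CCAATAAA alone in 50 bp turned the direction, to −1.49 points (exact permutation p = 0.031, unadjusted). These are few intervals, and 1 site called in several lists counts in each. Taken once per site, 19 of 57 sites (33.3%) held a match in 200 bp, against 26.3% of all sites of the genome. Sites of 6 or 7 lists had it at 6 of 7 and those of 9 lists at 3 of 4, where 34.9% of all sites in 6 to 8 lists and 36.1% of those in 9 lists did. Sites in 2 to 5 lists had it at 5 of 26, or 19.2%, against 31.9% of all such sites. The median GC content of the 200 bp was 52% at member sites and 43.5% at all sites, and its part in these shares was not tested.

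**Figure D5:**
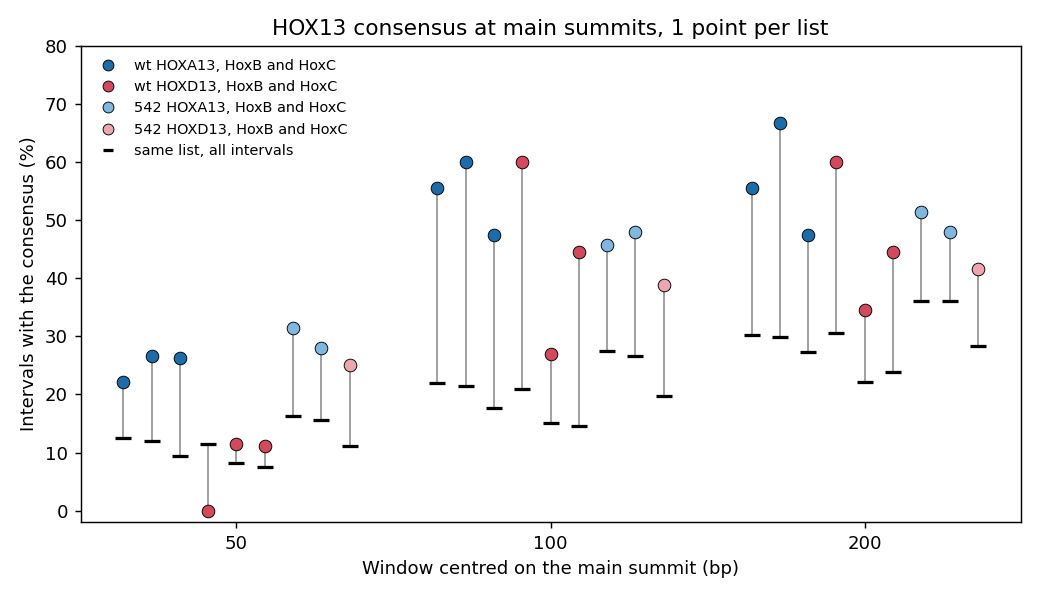
Share of intervals with a consensus match in 50, 100 or 200 bp centred on the main summit, 1 point per list for HoxB and HoxC intervals and a dash for all intervals of the same list, joined by a line. At 50 bp wt HOXD13 replicate 1 lies at 0 and below its dash, and at 100 and 200 bp all 9 points lie above theirs.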

How the data were processed

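Peak lists of 9 CUT&RUN libraries of mouse distal forelimb, made with antibodies to HOXA13 or HOXD13, were grouped by the genotype and antibody in their titles. According to the methods of the study, reads were trimmed with Cutadapt and mapped with bowtie2 to mm10 (wt) or to the mutant genome (542), low-quality and discordant alignments were dropped, and MACS2 was run per library, with no control, on read ends extended to 200 bp. By the commands listed duplicates were kept, which raises pileups, although a list of the software names picard for their removal. Replicates were pools of 3 to 5 embryos.

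The fold enrichment of each summit, a ratio, was computed by the authors as its pileup over the local background. Both the −log10 p-value and the −log10 q-value are the authors' Poisson values for that pileup, and the deposited score is 10 times the latter as a whole number, within 1 in all rows.

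Rows with the same bounds were joined into 1 interval, whose main summit has the highest −log10 p. Genes came from GENCODE M21 basic on GRCm38, and sequence from the same assembly (NCBI RefSeq). Pileups were recovered from fold enrichment and −log10 p. They came out whole within 0.01 for at least 99.95% of 2000 summits per list, drawn from those of lower −log10 p. Stronger summits were not part of that check. For the strongest, as at HoxC site 17 in wt HOXA13 replicate 1, no pileup was recovered. Chromosome 2 past 75 Mb, where the insert shifts positions, was left out of shares over all genes and sites, so gene shares and percentiles cover 20655 genes. A pseudocount of 0.5 was added to interval counts before taking log2. Tests were exact permutation or sign-flip tests over libraries, two-sided, threshold 0.05, adjusted by Benjamini-Hochberg over 10 tests. All sites called in all 9 lists, all sites split by antibody and all 10 genes are named. HoxB sites 4, 14, 17 and 24, HoxC site 26 and the 5 sites of 542 were named after their values were seen. The members, gene lists and rules were chosen with earlier results of these data known. Scripts were tested on simulated lists.

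Deviations from the antibody mean in the presence of 20317 joined top intervals were correlated between wt libraries sharing a number (0.111, 0.143 and 0.349). Each was over 0.1, so the title numbers were taken to pair them, for the replicate block only. Replicates 1 and 2 gave 0.219 and 0.146 when crossed, so these values do not settle how those pair. The main tests took each library as a separate unit. Alternatives were other window sizes, limits on fold enrichment or q-value, the top 10000 intervals, main summits or every summit row, covered length, other consensus windows and forms, each replicate left out, both replicates numbered 3 left out and the replicate block. Tools were samtools 1.23.1 and Python 3.11.15 with matplotlib 3.10.9, pysam 0.24.0, scipy 1.17.1, pandas 2.3.3 and numpy 2.4.6.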

Additional observations from a re-analysis of the deposited data

How the results depend on the processing

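Of 169 recomputed values, 121 kept their direction and their side of an unadjusted threshold of 0.05. In the tests of antibody and of genotype no alternative allows an exact permutation p under 0.1, so there only the direction could change. Taking main summits only repeated the main value of every test. HoxB and HoxC stayed below HoxD and HoxA in density under every alternative, from −1.96 to −1.39 and from −2.66 to −0.997 on the log2 scale. Alternatives with fewer units cannot reach the threshold: with the replicate block, same-numbered wt pairs as units, the values of −1.73 and −1.54 have an exact permutation p of 0.25, without replicate 3 of either antibody −1.71 and −1.53 have 0.125, and leaving out 1 library gave −1.85 to −1.59 and −1.66 to −1.31. The block changed no other call. Against HoxA, keeping fold enrichments of 5 and over gave −1.21 (exact permutation p = 0.125), and the cause was not tested.

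HoxC over HoxB in density passed the unadjusted threshold with 50 kb on either side (0.74), the top 10000 intervals (1.2), every summit row (0.57) and covered length (0.82), and turned to −0.25 in gene bodies alone. HOXA13 minus HOXD13 in HoxC turned to 0.88 in gene bodies, 0.16 with the top 10000 intervals and 0.48 without scaling to the list, and leaving out 1 library gave −0.35 (without wt HOXD13 replicate 3) to −0.040 (without wt HOXA13 replicate 1). In HoxB it turned to −0.98 in gene bodies, and leaving out 1 library gave −0.14 to 0.49, below 0 without wt HOXD13 replicate 1. Wt minus 542 turned to 0.19 in gene bodies and 0.20 at fold enrichments of 5 and over in HoxC, and to 0.011 with that limit in HoxB. Leaving out 1 library gave −0.40 to −0.097 in HoxC and −0.73 to −0.35 in HoxB, nearest 0 without wt HOXA13 replicate 1 and farthest without replicate 3.

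In strength, HoxC minus HoxB turned to 2.20 points with 10 kb on either side, 9.23 at fold enrichments of 5 and over, 4.69 with the top 10000 intervals and 8.21 ranked by −log10 p, and leaving out 1 library gave −6.00 to 0.851, above 0 without wt HOXA13 replicate 2 or 3. HoxB and HoxC minus HoxD turned to −7.34 in gene bodies and −9.28 by −log10 p, and passed with 10 kb (21.6), 50 kb (12.0) and a −log10 q of at least 5 (19.1), with 7.59 to 20.8 on leaving out 1 library. The consensus excess turned to −3.24 points in the top 10000 intervals and to −1.49 with CCAATAAA alone, the latter past the unadjusted threshold in the other direction (exact permutation p = 0.031), and passed with 50 kb (11.7), every summit row (5.58), 100 bp (30.4) and 200 bp (24.1), with 3.995 to 9.69 on leaving out 1 library. The cause of these changes was not tested.

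Cluster counts of 1 to 22 intervals per list limit every ratio. Lists were called without a control library, so background binding of the antibody cannot be told apart from signal, and a site missing from a shallow list may lie under its limit of detection.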
